A study of Mus musculus with 2 samples.

Results

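The Tfap2 family was described here gene by gene across the cell groups of a single-cell RNA-seq experiment on mouse cranial neural crest cells (CNCCs). Its members, Tfap2a, Tfap2b, Tfap2c, Tfap2d and Tfap2e, were taken by symbol and are 5 of the 32285 genes counted in both libraries. Heads of E11.5 embryos were cut under the second pharyngeal arch, dissociated with cold protease, and sorted for the membrane GFP that the mTmG reporter gives once CRE has acted in a cell. The control library (Tfap2HET) came from embryos of genotype Tfap2a wt/flox and Tfap2b wt/flox, and the mutant library (Tfap2NCKO) from Tfap2a flox/flox and Tfap2b flox/flox embryos. Both genotypes carried r26 mTmG/mTmG and Wnt1CRE+, so the controls too had 1 floxed copy of each gene open to recombination. Wnt1:CRE is active in the dorsal neural tube before crest cells leave it, and it also labels midbrain and hindbrain cells, so the sorted cells were not all neural crest. Each library pooled 2 embryos, on a mixed strain background, and was the only library of its genotype.

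TFAP2 proteins, also called AP-2, are transcription factors that bind GC-rich DNA as homodimers or heterodimers through a helix-span-helix domain shared by the whole family. Tfap2a and Tfap2b are known from neural crest, face, kidney and sympathetic neuron development, and mutations in the human genes cause branchio-oculo-facial and Char syndromes. Tfap2c is best known from trophoblast, germ cells and surface ectoderm, Tfap2d from the midbrain and retina, and Tfap2e from the olfactory system. Members that are present in the same cell can form mixed dimers, which is why detection per cell and make-up per cell group are given beside the levels.

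Measurements were UMIs, tags that mark single captured transcript molecules. A level is given in CPM, UMIs of the gene per 1000000 UMIs of the cell group in that library. Intervals in parentheses are 95% intervals: exact Poisson for CPM, exact Clopper-Pearson for shares, and exact conditional binomial for log2 ratios of mutant over control. With 1 library per genotype there was no replicate error and no test, and the intervals cover counting error only. They are too narrow wherever the UMIs of a gene sit in few cells, so the number of cells is given beside such values. A gene is called lower or higher in the mutant library where its interval left out 0. The control embryos' library held Xist at 1260 CPM and the mutant library Y-linked genes at 153 CPM, and a difference between genotypes cannot be told apart from a difference between sexes.

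After filtering, 5625 control and 5587 mutant cells were kept, with a median of 13478 and 12234 UMIs. They fell into mesenchyme (3718 control and 2728 mutant cells), glia (154 and 179), neurons (694 and 1125), brain progenitors (639 and 1073), ganglion neurons (93 and 11) and 2 sets that were left without a class. Isl1, a transcription factor of cranial sensory ganglia, marked the ganglion neurons at 1268 CPM in the control library. The class names held against their marker lists, as all 6 mesenchyme markers, led by Prrx1, summed to 1772 CPM in control mesenchyme and 116 CPM in control glia, and all 6 glial markers, such as Sox10 and Erbb3, to 3109 CPM in control glia and 18.4 CPM in control mesenchyme. Blood markers summed to 39.3 CPM in control and 0.24 CPM in mutant mesenchyme, muscle markers to 3.90 and 8.30 CPM, and ectoderm markers to 8.57 and 9.23 CPM, with Krt5 at 0 in both libraries. Immune markers were near 0 in mesenchyme and at 0 in glia. Their part in the values below was not tested. Of all kept barcodes, 5 sequences occurred in both libraries. The Tfap2 genes took no part in the clustering. Mesenchyme was clustered at a coarse resolution into 4 clusters and at a finer one into 7, and the finer clusters are used below wherever regions are described, because the coarse Lhx6/Lhx8 cluster joined 2 regions (50.6% Gata3/Pax3 cells, 47.2% maxillary-like cells) and the coarse Zic1/Tbx18 cluster joined 2 others (49.4% Crym/Six2 cells, 49.0% mural-like cells).

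The floxed alleles are followed by genotyping with a pair of primers for each gene, shown because they tie those alleles to the transcripts counted here. Capitals mark the bases that match an annotated transcript of the gene, and lower case the bases that match none.
Tfap2a AlflpCreF1: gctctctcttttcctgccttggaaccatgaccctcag
Tfap2a AlflpCreR1: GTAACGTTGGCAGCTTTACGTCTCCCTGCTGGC
Tfap2b Bfl606: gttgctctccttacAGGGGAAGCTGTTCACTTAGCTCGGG
Tfap2b Bfl2: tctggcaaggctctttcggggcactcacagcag
AlflpCreR1 matched with all 33 of its bases, antisense to the transcript, inside exon 5 of 7 of Tfap2a-201 at chr13:40721292-40721324 (GRCm38, the assembly of mm10, GENCODE M21). Bfl606 matched with its last 26 bases in exon 5 of 7 of Tfap2b-201, at chr1:19228559-19228584. These sites lay 2267 bases from the 3′ end of Tfap2a-201 and 4645 bases from that of Tfap2b-201. The libraries were counted from 3′ ends, so a UMI carries no sign of whether its allele had recombined. How far the levels reflect deletion was not tested.

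On the same annotation, Tfap2a (ENSMUSG00000021359) spans chr13:40715302-40738376 on the minus strand and overlaps the antisense gene Gm26688 at chr13:40727808-40735162. Tfap2b (ENSMUSG00000025927) lies at chr1:19208914-19238576 on the plus strand, with Tfap2d (ENSMUSG00000042596) as its neighbour at chr1:19103022-19166346 on the same strand. Tfap2c (ENSMUSG00000028640) lies at chr2:172549593-172558622, and Tfap2e (ENSMUSG00000042477) at chr4:126716006-126736240. Gm26688 had 34 control and 30 mutant UMIs in mesenchyme and 10 and 19 in glia, few beside Tfap2a, but without a stated strand setting the reads of the overlapping pair cannot be told apart.

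Both targeted genes were still well detected in the mutant library. Over all kept cells, Tfap2a had 2045 UMIs in the control (24.8 CPM, 953 cells) and 1630 in the mutant library (21.1 CPM, 711 cells). Tfap2b, the member with the most UMIs, had 7113 in the control (86.4 CPM) and 6013 in the mutant library (77.8 CPM). The whole-library totals hid a shift between cell classes, since mesenchyme held 54.2% of Tfap2a UMIs in the control and 35.1% in the mutant library, where fewer of the kept cells were mesenchyme. Tfap2c had 1184 and 895 UMIs, of which mesenchyme held 93.1% and 90.6%. Tfap2d had 269 and 470 UMIs, and neurons held 85.9% and 89.1% of them. Tfap2e was the rarest, with 117 and 122 UMIs in 38 and 57 cells. The family thus divided into a pair found in mesenchyme, glia and neurons, a member of the mesenchyme, and a pair found mostly in neurons.

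In the control library, Tfap2a was highest in a cluster of neurons led by Hmx2 and Lamp5, at 262 CPM (235 to 291). A Adamts1/Dlx1 glial cluster at 112 CPM and a Rgcc/Fabp7 glial cluster at 84.0 CPM followed, then Crym/Six2 frontonasal-like mesenchyme at 72.2 CPM and ganglion neurons at 69.2 CPM, and the intervals of neighbours within these 4 groups met. Much lower came the Cyp26a1/Ebf2 mesenchyme cluster at 28.4 CPM, mural-like cells at 25.7 CPM, Gata3/Pax3 frontonasal-like cells at 14.2 CPM and second arch-like cells at 13.9 CPM. Maxillary-like and mandibular-like mesenchyme had the lowest levels of the mesenchyme, 5.64 and 2.05 CPM. Frontonasal mesenchyme gives the midface and upper snout, and within it the 2 clusters differed widely in Tfap2a, the Crym/Six2 cells being above the Gata3/Pax3 cells with no overlap of intervals.

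Tfap2b followed Tfap2a in part. It was again highest in the Hmx2/Lamp5 neurons, at 1081 CPM (1026 to 1138), then in Isl2/Prph ganglion-like neurons at 426 CPM, ganglion neurons at 317 CPM, Rgcc/Fabp7 glia at 303 CPM, Bhlhe23/Dbx1 neurons at 257 CPM and Crym/Six2 frontonasal-like mesenchyme at 238 CPM. Mural-like cells had 203 CPM of Tfap2b against 25.7 CPM of Tfap2a. Mural cells are the pericytes and smooth muscle of vessels, and 6 mural markers were higher in this cluster than in other mesenchyme. Zic1, Tbx18 and Lum were among its leading genes too, so it may hold other cells than those of vessels. In the other mesenchyme Tfap2b was low: 27.5 CPM in the Gata3/Pax3 cluster, 19 UMIs in the Cyp26a1/Ebf2 cluster, and 4.28, 2.51 and 2.50 CPM in mandibular-like, second arch-like and maxillary-like cells. The intervals of the last 2 groups met, and in second arch-like cells the 20 control UMIs came from 7 cells. Tfap2b was thus found mainly in Crym/Six2 and mural-like mesenchyme, glia, ganglion neurons and some neuron clusters. It was near the limit of detection in maxillary-like, mandibular-like and second arch-like cells.

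Tfap2c had another order of regions. Its highest control levels were in the Gata3/Pax3 frontonasal-like cluster, 32.5 CPM (29.3 to 36.0), and the maxillary-like cluster, 29.7 CPM (26.7 to 32.9), whose intervals met. Mandibular-like cells followed at 19.6 CPM, Crym/Six2 cells at 11.9 CPM, mural-like cells at 5.61 CPM and second arch-like cells had 12 UMIs. It was not detected in control neurons, 0 UMIs, which allows up to 0.530% of these cells to have a UMI and sets no limit on cells that express the gene. Epcam, a marker of epithelium, was found in 2 of 281 thinned control mesenchyme cells with a Tfap2c UMI and in 52 of 3384 without one, and in 0 of 208 mutant cells with Tfap2c against 52 of 2465 without. Krt18, a keratin of simple epithelium, was found in 0 of 281 and 56 of 3384 control cells and in 2 of 208 and 49 of 2465 mutant cells.

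Tfap2d and Tfap2e were almost confined to neural clusters. In mesenchyme each had 1 UMI in each library, and in glia each had 0 UMIs, which allows 2.37% of the control and 2.04% of the mutant glia to have a UMI. Tfap2d was highest in Bhlhe23/Dbx1 neurons, at 98.9 CPM in 73 control cells, and in Isl2/Prph ganglion-like neurons, at 66.2 CPM in 15 control cells. Bhlhe23/Dbx1 neurons, which also had Pou4f1, Barhl1 and Barhl2, were the highest cluster for Tfap2e too, with 43.5 CPM in 23 control cells. A cluster led by Mybl1 and Neurod4, a proneural factor, had 11 control UMIs of Tfap2d in 4 cells and 11 of Tfap2e in 2 cells, 10 of the latter in 1 cell, and no order is read from them.

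**Figure D1:**
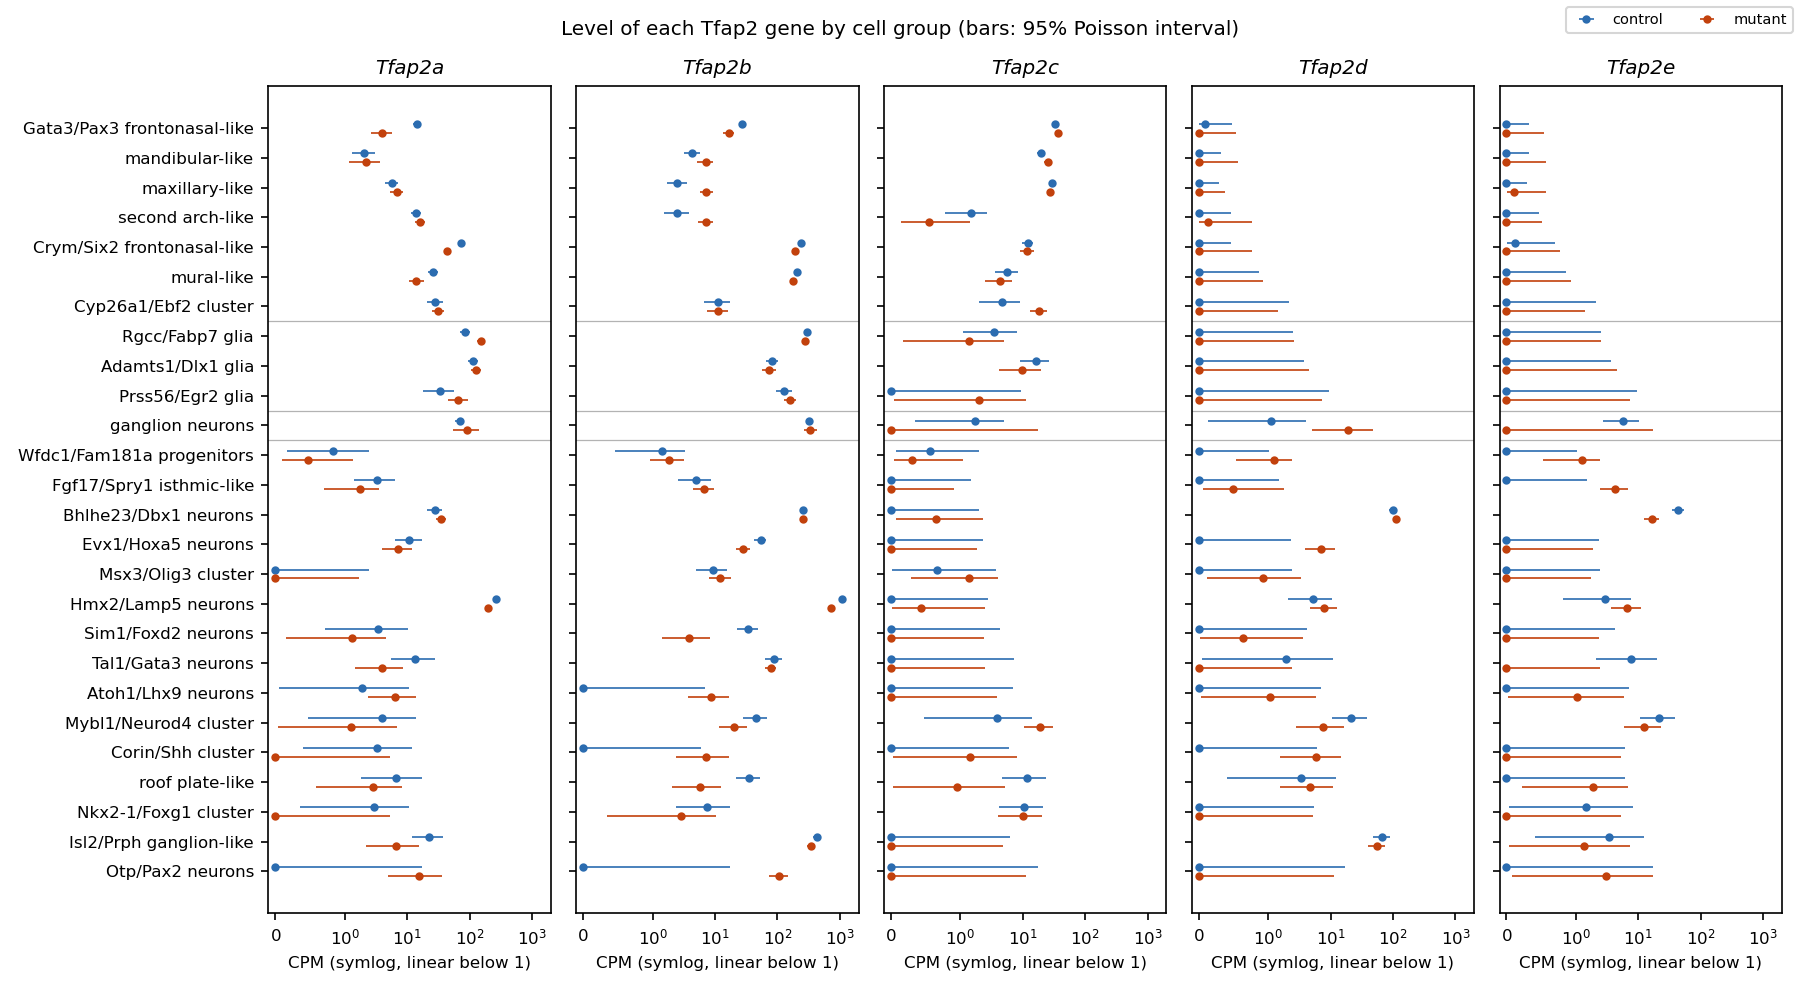
Level (CPM, on a log axis that is linear below 1) of each Tfap2 gene in each cell group of the control and mutant libraries, with 95% Poisson intervals for counting error, 1 library per genotype. Tfap2b in the Hmx2/Lamp5 neurons is the highest point at 1081 CPM in the control and 730.4 CPM in the mutant library, and Tfap2d and Tfap2e points lie in the neural clusters.

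Where in the family the UMIs lay differed as much between regions as the levels did. Shares of UMIs depend on how well each 3′ end was captured, so they are compared between groups of cells and not between genes. In Crym/Six2 frontonasal-like cells Tfap2b gave 73.9% and Tfap2a 22.4% of the family's control UMIs, and in mural-like cells Tfap2b gave 86.6%. In maxillary-like and mandibular-like cells Tfap2c gave 78.5% and 75.6%, so these regions had a Tfap2c-rich make-up. In second arch-like cells Tfap2a gave 77.6% and in Cyp26a1/Ebf2 cells 64.5%. The Gata3/Pax3 cluster was mixed, with 19.2% Tfap2a, 37.0% Tfap2b and 43.7% Tfap2c, and in the mutant library its make-up moved to 6.78%, 28.6% and 64.6%.

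**Figure D2:**
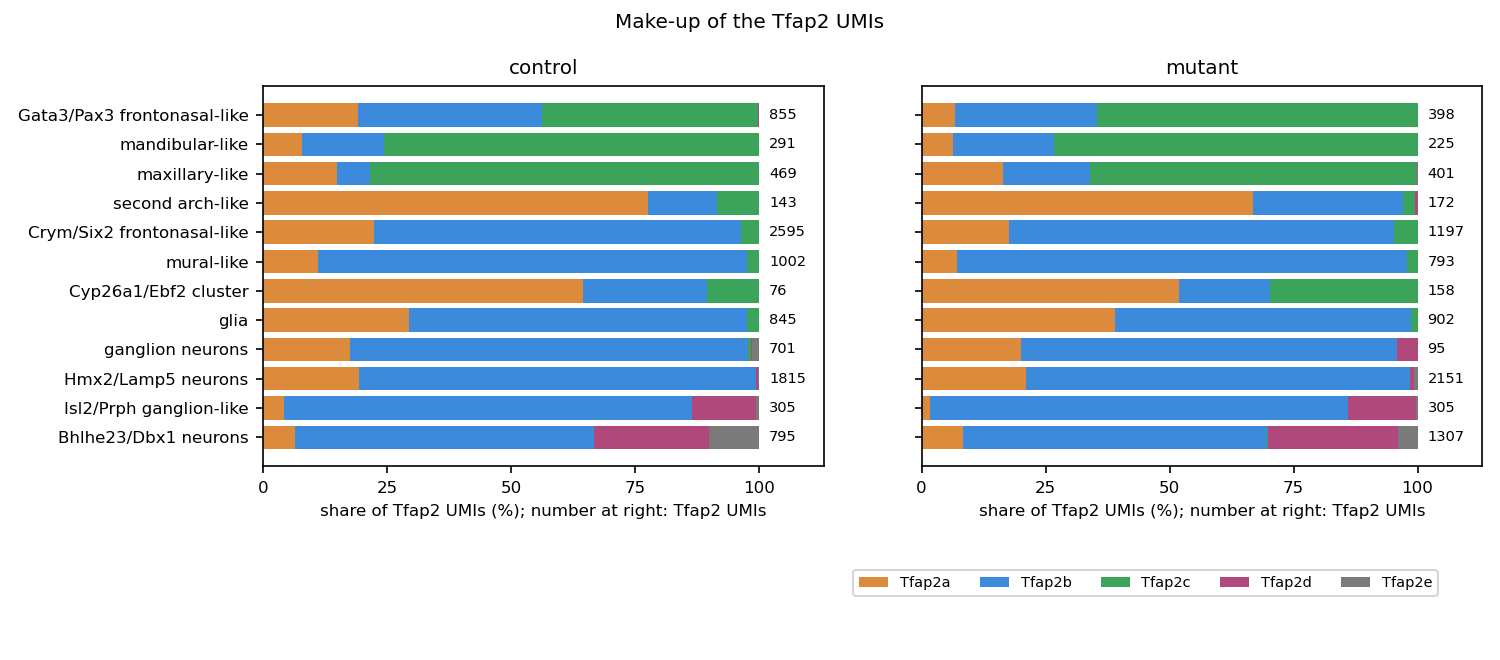
Share (%) of the family's UMIs given by each of the 5 genes in each cell group, control and mutant libraries side by side. Tfap2c takes 78.5% of the control UMIs of maxillary-like cells, Tfap2b 86.6% of those of mural-like cells and Tfap2a 77.6% of those of second arch-like cells.

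Mutant and control levels were compared within each class, to describe the targeted genes and the other members in the cells that remained. In mesenchyme, Tfap2a was lower in the mutant library, 572 UMIs (13.7 CPM) against 1108 (19.4 CPM), a log2 ratio of -0.50 (-0.65 to -0.35). Tfap2b was lower by less, 1959 UMIs (47.0 CPM) against 3219 (56.3 CPM), a log2 ratio of -0.26 (-0.34 to -0.18), and Tfap2c did not differ detectably, 19.4 CPM in the mutant against 19.3 CPM in the control, 0.01. None of these 3 members reached 1.5-fold in mesenchyme as a whole, where 2.61% of 12436 genes with at least 100 UMIs were that much higher and 1.08% that much lower in the mutant library. The share of mesenchyme cells with a Tfap2a UMI was 16.6% in the control and 13.4% in the mutant library, at nearly equal median depths of 14437 and 14286 UMIs. After each cell was thinned to 5000 UMIs the shares were 7.69% (6.85 to 8.61) and 6.06% (5.19 to 7.03). For Tfap2b the thinned shares were 12.9% in the control and 11.97% in the mutant library, and for Tfap2c 7.67% and 7.78%.

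The class value for Tfap2a summed regions that moved differently. The Gata3/Pax3 frontonasal-like cluster had the largest difference of the 7 clusters, 27 mutant UMIs (3.92 CPM, 21 cells) against 164 control UMIs (14.2 CPM, 115 cells), a log2 ratio of -1.86 (-2.51 to -1.27). Mural-like cells had 56 UMIs in the mutant and 110 UMIs in the control library, a log2 ratio of -0.87 (-1.36 to -0.40). Crym/Six2 frontonasal-like cells, which held 581 of the control UMIs, had 44.1 CPM in the mutant and 72.2 CPM in the control library, a log2 ratio of -0.71 (-0.95 to -0.48), and the share of cells with a Tfap2a UMI was 36.8% against 51.4%. All 3 clusters passed 1.5-fold for Tfap2a, where 0.747% of genes in the Gata3/Pax3 cluster, 1.26% in mural-like cells and 1.95% in Crym/Six2 cells were that much lower. In the other 4 clusters the interval held 0, as in second arch-like cells with 15.8 CPM in the mutant and 13.9 CPM in the control library, 0.19 (-0.20 to 0.58).

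Tfap2b went in both directions. It was lower in the mutant library in the Gata3/Pax3 cluster, 16.6 against 27.5 CPM (log2 ratio -0.73), in Crym/Six2 cells, 193 against 238 CPM (-0.30), and in mural-like cells, 181 against 203 CPM (-0.17). It was higher in the 3 arch groups where it was rare in the control: 7.25 against 2.50 CPM in maxillary-like cells (1.54, 0.91 to 2.20), 7.16 against 2.51 CPM in second arch-like cells (1.51, 0.75 to 2.34) and 7.07 against 4.28 CPM in mandibular-like cells (0.73, 0.12 to 1.34). The cells behind these values were few, 16 control and 33 mutant maxillary-like cells and 7 and 23 second arch-like cells. In mandibular-like cells the number of cells went the other way, 17 control and 9 mutant cells, and a single cell held 18 UMIs in each library. Of genes with at least 100 UMIs, 1.09% were 1.5-fold or more higher in mutant maxillary-like cells; Tfap2b had 101 UMIs there and 72 in second arch-like cells.

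Tfap2c was higher in the mutant library in 2 of the 7 clusters and lower in none. In the Cyp26a1/Ebf2 cluster it had 47 mutant UMIs in 31 cells (18.1 CPM) against 8 control UMIs in 6 cells (4.63 CPM), a log2 ratio of 1.96 (0.87 to 3.26). In mandibular-like cells it had 25.4 CPM against 19.6 CPM, 0.37 (0.07 to 0.67). The 2 clusters richest in Tfap2c had intervals that held 0, with 37.3 against 32.5 CPM in the Gata3/Pax3 cluster and 27.3 against 29.7 CPM in maxillary-like cells. At the coarse resolution the Cyp26a1/Ebf2 cells were part of the second arch-like cluster (26.4% of its cells), where Tfap2c had a log2 ratio of 1.68, while the finer second arch-like cluster had 4 mutant and 12 control UMIs, -1.45 (-3.54 to 0.27).

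**Figure D3:**
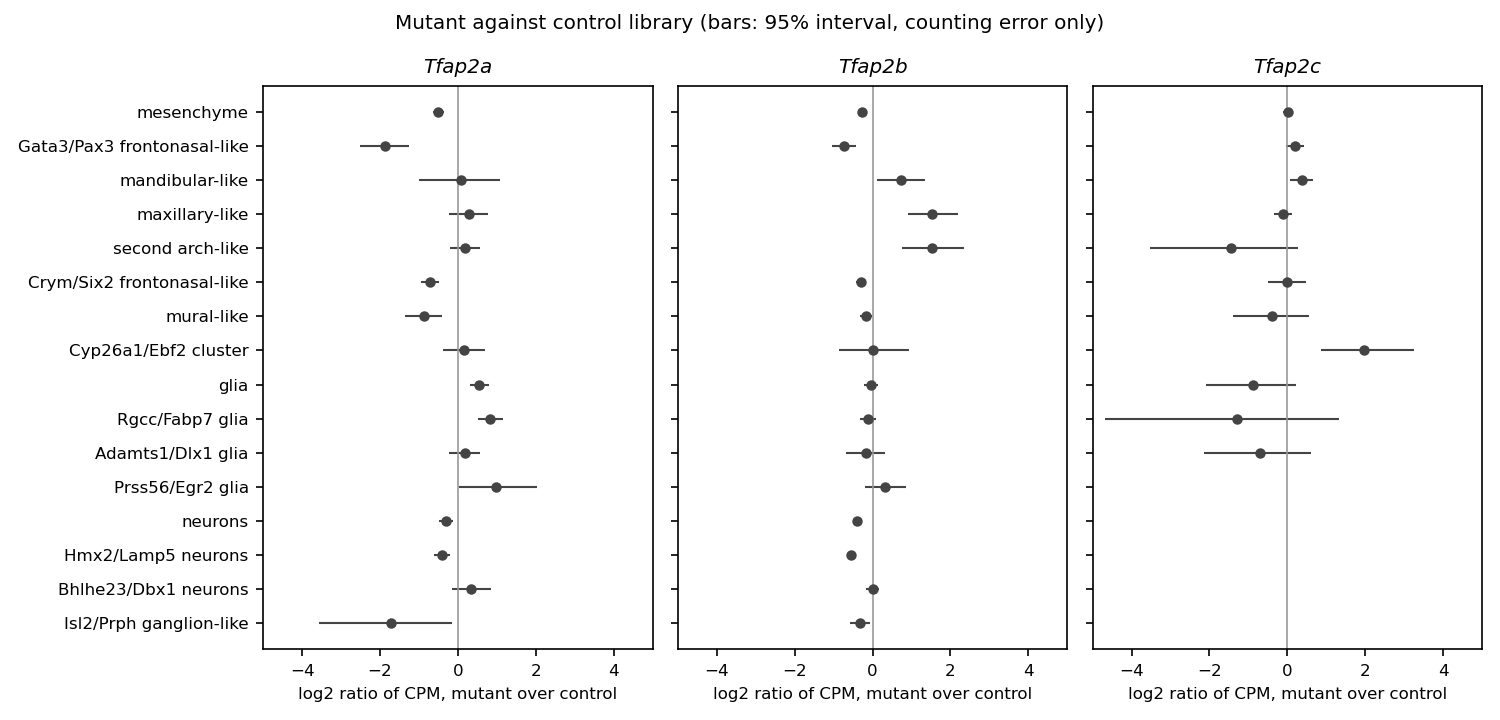
Log2 ratio of mutant over control CPM of Tfap2a, Tfap2b and Tfap2c in mesenchyme, glia, neurons and their clusters, with 95% conditional binomial intervals for counting error, 1 library per genotype. Tfap2a in Gata3/Pax3 frontonasal-like cells lies at -1.86, Tfap2b in maxillary-like cells at 1.54 and Tfap2c in the Cyp26a1/Ebf2 cluster at 1.96.

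In glia, a class named from general glial markers, Tfap2a was higher in the mutant library. It had 351 UMIs in 179 mutant cells (128 CPM, 115 to 142) and 248 UMIs in 154 control cells (87.0 CPM, 76.5 to 98.5), a log2 ratio of 0.55 (0.31 to 0.79). Of the 6793 genes tested in glia, 3.47% were 1.5-fold or more higher and 3.12% that much lower, and Tfap2a, at less than 1.5-fold, was not among them. Tfap2b was near equal, 196 against 202 CPM (-0.04), so the number of Tfap2b UMIs per Tfap2a UMI was 1.54 (1.34 to 1.76) in mutant and 2.32 (2.00 to 2.71) in control glia. After thinning, 45.5% (38.0 to 53.1) of mutant glia and 25.5% (18.8 to 33.2) of control glia held Tfap2a. The difference lay in 2 of the 3 glial clusters: Rgcc/Fabp7 glia had 150 against 84.0 CPM (0.83, 0.51 to 1.16) and Prss56/Egr2 glia 66.0 against 33.3 CPM from 33 and 13 UMIs (0.99, 0.02 to 2.04), while Adamts1/Dlx1 glia had 126 against 112 CPM (0.17, interval holding 0). When the libraries were merged without integration, the Rgcc/Fabp7 cells fell into a mixed cluster and the Tfap2a ratio of the glia that remained was 0.02.

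Melanoblasts were few, and the melanoblast list summed to 142 CPM in control and 53.4 CPM in mutant glia, with Tyrp1 at 0 in both. Cells with at least 3 UMIs of Dct or Pmel, enzyme and matrix genes of pigment cells, numbered 4 in control and 2 in mutant glia, and held 153 of 157 and 36 of 43 Dct UMIs. Their Tfap2a level was 379 CPM in the control (32 UMIs) and 557 CPM in the mutant library (11 UMIs). Without them Tfap2a was 78.1 CPM in control and 124 CPM in mutant glia, a difference in the same direction. Other marker lists differed between the libraries too, in both directions. All 6 neuron markers summed to 140 CPM in control and 68.3 CPM in mutant glia, and all 6 brain progenitor markers to 426 and 285 CPM. Ectoderm markers, 4 of 10 detected in each library, summed to 2.10 and 11.6 CPM. Mesenchyme markers summed to 116 and 147 CPM, and the part of these cells in the Tfap2a value was not tested.

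In neurons as a class, Tfap2b was lower in the mutant library, 237 against 312 CPM (-0.40, -0.48 to -0.32), and so was Tfap2a, 48.2 against 59.2 CPM (-0.30, -0.48 to -0.12). The Tfap2a value was -0.04 when cells were thinned to equal depth. Tfap2d was 33.7 against 30.8 CPM with an interval that held 0 (0.13), and Tfap2e was lower, 69 against 91 UMIs, 5.55 against 12.1 CPM (-1.13, -1.60 to -0.66). Genes 1.5-fold or more lower made up 0.886% of 10155 and those as much higher 1.73%.

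Most Tfap2a and Tfap2b UMIs of neurons were in the Hmx2/Lamp5 cluster, of 120 control and 185 mutant cells. It held Lhx1 and Lhx5 of the inhibitory list as well, LIM homeobox factors of brain neurons, but no neuron list named it. The visceral list scored highest, with 3 markers higher than in other neural cells, while Lhx1 was among the leading genes of the cluster. There Tfap2b was 730.4 CPM in the mutant and 1081 CPM in the control library, -0.57 (-0.67 to -0.46), with a UMI in 65.9% and 76.7% of cells. The control cells had a median of 8.5 Tfap2b UMIs and the mutant cells 4, and 77 of 120 control against 96 of 185 mutant cells had at least 4. Tfap2a was lower as well, 199 against 262 CPM (-0.40, -0.60 to -0.19). Thinning moved the Tfap2b ratio to -0.25 and the Tfap2a ratio to -0.12. The cluster differed between the libraries in neuronal markers too, in both directions within each list. Of the inhibitory list, Pax2 had 62.3 CPM in the mutant and 20.1 CPM in the control library and Lhx1 535 against 653 CPM. Of the excitatory list, Barhl1 had 49.2 against 5.21 CPM and Pou4f1 134 against 289 CPM. Their part in the Tfap2 values was not tested.

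In Bhlhe23/Dbx1 neurons, of 186 control and 297 mutant cells, Tfap2b did not differ detectably, 258 against 257 CPM, nor did Tfap2d, 110.4 against 98.9 CPM (0.16). Tfap2e, among genes of which 1.12% were 1.5-fold or more lower, was lower there, 51 against 81 UMIs, 16.4 against 43.5 CPM (-1.41, -1.94 to -0.88), and it was found in 24 mutant and 23 control cells, of which the highest had 6 and 17 UMIs. These were 8.08% of the mutant and 12.4% of the control cells, with 2.12 and 3.52 UMIs per cell with Tfap2e, so both the share and the UMIs per cell were lower, the share with intervals that met. Isl2/Prph ganglion-like neurons, of 25 control and 41 mutant cells, had 342 CPM of Tfap2b in the mutant and 426 CPM in the control library (-0.31), and 5 against 13 UMIs of Tfap2a (-1.73). Ganglion neurons had 338 CPM of Tfap2b in the mutant and 317 CPM in the control library, from 11 mutant cells only. Of those mutant cells 36.4% were called doublets, against 2.15% of the control ganglion neurons.

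Brain progenitors had low levels of the family, read beside the background that free RNA of mesenchyme gives. Mesenchyme markers reached 0.94% to 3.60% of their mesenchyme level in progenitors. Tfap2a reached 12.4% in the control and 7.30% in the mutant library and Tfap2b 9.63% and 8.53%, above each mesenchyme marker. This leaves out RNA from neurons, where both genes were higher than in mesenchyme. Neuron markers summed to 462 CPM in control progenitors and 10211 CPM in control neurons, and the part of neuron RNA was not tested. In control progenitors 1 cell held 20 of 43 Tfap2b UMIs, and 1 cell held 7 of 19 Tfap2a UMIs. Cells with a Tfap2a UMI made up 1.88% of control progenitors and 1.03% of mutant ones, at median depths of 11589 and 11242 UMIs. The Tfap2a ratio of -1.26 (-2.40 to -0.16) rests on 13 mutant and 19 control UMIs. For Tfap2e, 27 mutant UMIs in 13 cells stood against 1 control UMI, a ratio of 4.04 with a wide interval (1.44 to 9.40), and without integration it was 0.68.

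Small neural clusters gave values that rested on single cells. All 29 control Tfap2b UMIs of Sim1/Foxd2 neurons were in 1 cell, against 6 mutant UMIs, and 79 of 117 mutant Tfap2b UMIs of Tal1/Gata3 neurons were in 1 cell. In Otp/Pax2 neurons Tfap2b had 34 UMIs in 4 of 35 mutant cells and 0 UMIs in 20 control cells, which allows up to 16.8% of the control cells to have a UMI. In isthmic progenitors Tfap2e had 17 UMIs in 5 mutant cells, 7 of them in 1 cell, and 0 in the control library. These are values of few cells, and no order between the libraries is read from them.

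Whether Tfap2a and Tfap2b were present in the same cells was described after each cell had been thinned to 5000 UMIs, since deeper cells give more joint detection. In control mesenchyme 115 of 3665 cells had both, 3.14% (2.60 to 3.76), where the product of the single shares was 0.99%. In mutant mesenchyme 46 of 2673 had both, 1.72% (1.26 to 2.29), where the product was 0.73%. Tfap2b was found in 40.8% of control mesenchyme cells with Tfap2a and 10.6% of those without, and in 28.4% and 10.9% of the mutant cells. The cells with both genes were not spread over the mesenchyme, as the regions show.

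Within the mesenchyme clusters that held most of these cells, the share with both genes lay nearer the product. In Crym/Six2 frontonasal-like cells, which held 80 of the 115 control cells, 16.8% (13.6 to 20.5) had both genes and the product was 13.7%. The mutant Crym/Six2 cells had 29 of 285, 10.2% (6.92 to 14.3), with a product of 6.56%, and Tfap2b was found in 65.9% of cells with Tfap2a and 38.2% without. Mural-like cells had both in 27 of 360 control cells and 13 of 347 mutant ones. Second arch-like cells had 1 control cell and 0 mutant cells with both, maxillary-like cells 0 and 1, mandibular-like cells 3 and 0, and Cyp26a1/Ebf2 cells 0 and 1. Glia had both in 13.1% of control and 25.3% of mutant cells, with products of 11.7% and 20.5%. The highest share was in Hmx2/Lamp5 neurons, 51.7% (42.3 to 61.0) in the control and 42.9% (35.6 to 50.4) in the mutant library where the products were 41.5% and 29.1%, with Tfap2b in 89.7% of control cells with Tfap2a and 48.0% of those without. In Bhlhe23/Dbx1 neurons 12 of 181 control and 24 of 285 mutant cells had both, 6.63% and 8.42%, where the products were 1.45% and 2.18%.

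**Figure D4:**
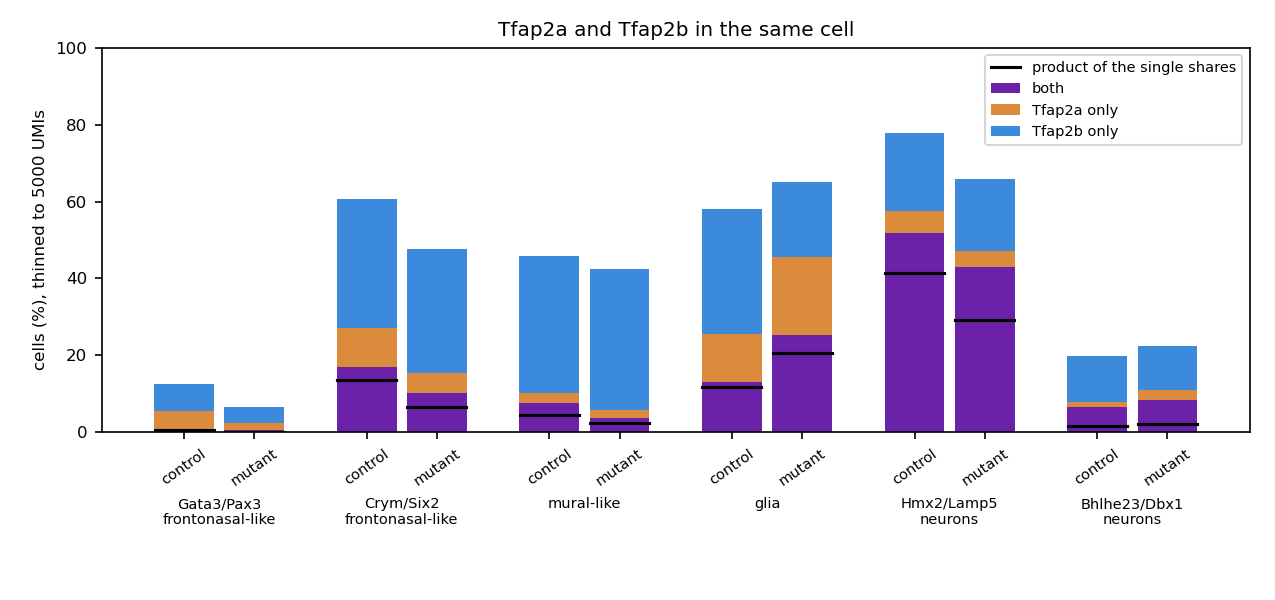
Stacked bars of the share (%) of cells, thinned to 5000 UMIs, with both Tfap2a and Tfap2b, with Tfap2a alone and with Tfap2b alone, in 6 cell groups and both libraries, with a black line at the product of the 2 single shares. The bars for both genes reach 16.8% for Crym/Six2 cells in the control and 10.2% in the mutant library, and 51.7% and 42.9% for Hmx2/Lamp5 neurons.

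Other pairs met less often. Tfap2b and Tfap2c shared 15 control mesenchyme cells, 0.41% against a product of 0.99%, and 10 mutant cells, 0.37% against 0.93%, below the product in both libraries. Within control mesenchyme, Tfap2b was highest in Crym/Six2 cells (238 CPM) and Tfap2c in Gata3/Pax3 and maxillary-like cells (32.5 and 29.7 CPM). Shares over the whole mesenchyme therefore do not describe joint detection of this pair within a cluster. Tfap2a and Tfap2c shared 0.52% of control mesenchyme cells where the product was 0.59%. In Bhlhe23/Dbx1 neurons, Tfap2d was found in 5.88% of thinned control cells with Tfap2b and 28.6% of those without, and 2 control and 6 mutant cells had both, 1.10% and 2.11% where the products were 4.57% and 5.75%. Tfap2e went with Tfap2b instead: 12 control cells had both, 6.63% against a product of 1.97%, and 10 mutant cells, 3.51% against 1.33%. Tfap2d and Tfap2e were found together in 0 of 181 control and 0 of 285 mutant cells, where the products were 2.55% and 1.92%. Tfap2d and Tfap2e, which share their highest cluster, were thus not found in the same cell at this depth. Isl2/Prph ganglion-like neurons differed, with Tfap2b and Tfap2d in the same cell in 9 of 25 control cells and 2 of 38 mutant cells.

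Genes of the frontonasal programme were then set beside Tfap2 detection, within Crym/Six2 cells. Of thinned control cells, 289 had Tfap2a or Tfap2b and 187 had neither. Pax3, a homeobox regulator of neural crest, was found in 32.2% of cells with a Tfap2 UMI and 13.4% of those without, Pax7 in 17.3% and 5.88%, and Msx1 in 57.1% and 36.4%. Alx4 was found in 40.1% and 26.7%, whereas Alx1 was alike, 62.6% and 63.6%, and so was Six2, 42.9% and 39.0%, with intervals that met. The frontonasal genes, homeobox factors of the midface, thus differed among themselves across these cells. In the mutant library, with 136 cells with Tfap2 and 149 with neither, the same sides were seen for Pax3 (8.82% and 3.36%), Msx1 (22.8% and 13.4%) and Alx4 (33.1% and 9.40%), and of these the intervals stayed apart for Alx4 only. Within Gata3/Pax3 cells, Pax7 was found in 34.1% of control cells with Tfap2 and 16.9% without, and in 34.5% and 8.87% of mutant cells. Msx1 had the other side there, 67.0% with and 77.7% without in the control and 62.1% and 70.0% in the mutant library, with intervals that met, and the intervals of the other 4 genes met in both libraries too. Cells share a library, so these are descriptions of joint detection and not tests.

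**Figure D5:**
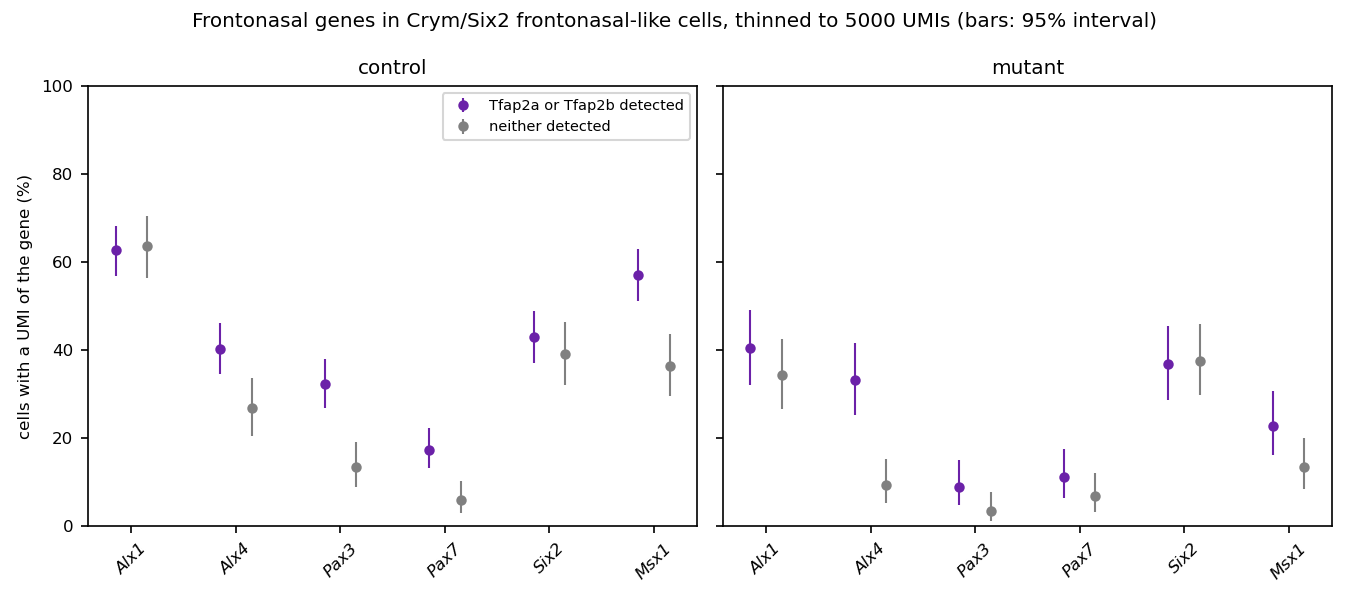
Share (%) of Crym/Six2 frontonasal-like cells, thinned to 5000 UMIs, with a UMI of each frontonasal gene, for cells with and without a Tfap2a or Tfap2b UMI, in the control and mutant libraries, with 95% Clopper-Pearson intervals. Pax3 lies at 32.2% against 13.4% and Alx1 at 62.6% against 63.6% in the control library.

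Of 25 genes known to work with or beside TFAP2, 19 were measured in mesenchyme with at least 100 UMIs. These comprise co-factors such as Cited2 and the inhibitor Kctd15, early neural crest regulators and pigment cell genes. In mesenchyme 1 of the 19 was 1.5-fold or more higher in the mutant library and 0 were as much lower, beside 2.61% and 1.08% of all genes tested, with a median log2 ratio of -0.04 beside 0.02 over all genes. The gene was Zic1, a zinc finger factor of the neural plate border, at 26.8 CPM (1119 UMIs) in the mutant and 10.7 CPM (609 UMIs) in the control library, a log2 ratio of 1.33 (1.19 to 1.48). In glia 12 were measured, with 1 higher and 2 lower, beside 3.47% and 3.12% of all genes. Sox9, a factor of early crest and glia, was 89.4 against 44.9 CPM (0.99, 0.68 to 1.31), and Dct (-1.82) and Pmel (-1.18) were lower. Dct and Pmel rest on the 4 and 2 pigment cells given above. In neurons 12 were measured, with 0 higher and 0 lower, beside 1.73% and 0.886%.

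Likeness of pattern was measured as Pearson's r of log2(CPM + 1) over 15 cell groups of the control library among 12750 genes. Groups with fewer than 50 cells in either library were left out. The points share 1 library and differ in depth and cell number, and with 15 groups many genes are alike. Tfap2b was the gene most like Tfap2a, with r = 0.83, and in the mutant groups r was 0.88. Ngfr, the low-affinity neurotrophin receptor of neural crest and glia, followed with r = 0.82 (mutant 0.84), then Gm16104 at 0.78 and Tmsb15b1 and Lrrc7 at 0.77. For Tfap2b, Zdhhc14 at 0.82 fell to -0.14 in the mutant groups, with Arhgdig at 0.81, Akap12 at 0.80 and Tbc1d23 at 0.79. For Tfap2c, Tbx3, a T-box factor of the facial prominences, had r = 0.97 (mutant 0.94), followed by Rpl34 at 0.91 and Car8 at 0.90. Tfap2d and Tfap2e had r = 0.97 with each other in the control and 0.72 in the mutant groups, and Pappa2 had 0.92 with Tfap2d. In the control groups used, Bhlhe23/Dbx1 neurons had 98.9 CPM of Tfap2d and 43.5 CPM of Tfap2e. Hmx2/Lamp5 neurons came next with 5.21 and 2.98 CPM, so r rests on few groups. Isl2/Prph ganglion-like neurons, with 66.2 CPM of Tfap2d and 3.39 CPM of Tfap2e, were among those left out. Of the 25 entries in the 5 lists, in which a pair of members stands under both, 4 stayed among the first 5 in the mutant groups.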

How the data were processed

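Cells of 1 control and 1 mutant library were analysed. The deposited values are raw UMI counts, which the authors made with the count function of Cell Ranger (6.0.0 in the file headers) and mm10. The annotation release and strand setting are not given in the sources used here. The submitters' processing notes also name bcl2fastq and Seurat 4.3.0. Barcodes with over 10% mitochondrial UMIs, under 200 or over 7500 genes were removed (523 control, 476 mutant), which left 5625 and 5587 cells from 6148 and 6063 barcodes with 83542433 and 79206144 UMIs. Libraries were integrated with Seurat 5.3.0 (R 4.3.3) with 30 dimensions of 2000 variable genes, and the first clustering used a resolution of 0.05. Mesenchyme was clustered again with 20 dimensions at 0.2 and, as an alternative, 0.4, neural cells and glia at 0.4. The Tfap2 genes, Gm26688, frontonasal genes and sex-linked genes, 32 in all, took no part. Clusters were named from marker lists, but the resolution for neural cells and glia and the naming rule were settled after clusters had been seen. Where names rest on leading genes, these define the cluster and are no result. Scrublet marked 91 control and 166 mutant cells as doublets, which were kept, and removed in an alternative.

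Counts were summed per library and cell group with Python 3.11.15, pandas 2.3.3 and SciPy 1.17.1. A gene counted as 1.5-fold apart if it had at least 100 UMIs over both libraries. Thinning drew 5000 UMIs per cell without replacement and left out the 121 control and 173 mutant cells with fewer. A count of 0 was set against a floor of 3 counts. Scripts were tested on simulated data. edgeR 4.0.16 gave scaling factors only. Named genes were the 5 members, pathway genes 1.5-fold apart in mesenchyme or glia, and the 5 genes most like each member. Genes of the Hmx2/Lamp5 neurons and frontonasal genes were named after values were seen. The members and lists were chosen with earlier results of these data known. Primer sequences are those the study lists for genotyping. Some genes of the lists are not reported here. The AP-2 motif GCCNNNGGC on either strand was in none of the promoter windows found for 4 members, and in 16.6% of all 32851 windows of that length (RefSeq, GRCm38.p6).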

Additional observations from a re-analysis of the deposited data

Results flagged for a closer look

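For some members the ratio of mutant over control went one way in a cell group and the other way in another, with intervals that did not overlap 0. With 1 library per genotype, the difference between the cell groups was not tested. Tfap2a had a log2 ratio of -0.50 in mesenchyme, -0.30 in neurons and -1.26 in brain progenitors, and 0.55 in glia. Tfap2e had -1.13 in neurons and 4.04 in brain progenitors, the latter from 27 mutant UMIs against 1 control UMI. Among the coarse mesenchyme clusters, Tfap2a had -1.11 in the Lhx6/Lhx8 cluster, -0.87 in the Zic1/Tbx18 cluster and 0.34 in second arch-like cells. Without integration the first 2 were -0.32 and -0.28. Tfap2b had -0.37 and -0.27 in the Lhx6/Lhx8 and Zic1/Tbx18 clusters, and 1.10 in second arch-like and 0.73 in mandibular-like cells. At the finer resolution the Tfap2a interval of second arch-like cells held 0.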

How the results depend on the processing

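No paired analysis was possible because each genotype had 1 library, and for the same reason no replicate could be left out. Of the log2 ratios of mutant over control computed under alternatives, 208 stayed within their interval, 27 moved and 3 turned. TMM scaling, a minimum of 2000 UMIs, and removal of doublets or of haemoglobin-rich cells left all 27 ratios within their intervals. These were ratios of the classes, the coarse mesenchyme clusters, and the Hmx2/Lamp5 and Bhlhe23/Dbx1 neurons. Ratios of the finer mesenchyme clusters, used above for regions, served only as an alternative to the coarse ones. They were not recomputed under the other alternatives. Without integration, the Tfap2b ratio of the Lhx6/Lhx8 cluster turned to 1.04 and that of Tfap2c in mandibular-like cells to -0.11. At the finer resolution Tfap2c in second arch-like cells turned to -1.45. Thinning moved Tfap2a to 0.95 in glia and -0.0401 in neurons, and Tfap2b to -0.15 in mesenchyme and -0.17 in neurons. With cells weighted equally, Tfap2b was -0.16 in mesenchyme and -0.17 in neurons. Without integration, glial Tfap2a had a log2 ratio of 0.0154 and Tfap2b 0.18, and with the set-aside clusters included glial Tfap2b was -0.28. Control levels in the Zic1/Tbx18 cluster were 48.5 CPM of Tfap2a and 211 CPM of Tfap2b with equal weights, and 50.9 and 214 CPM thinned, and in glia 71.9 and 182 CPM thinned. The share of cells with both Tfap2a and Tfap2b in the Zic1/Tbx18 cluster was 30.6% in the control and 17.9% in the mutant library with no thinning, and 22.5% and 10.6% at 8000 UMIs. In glia it was 49.4% and 54.7% with no thinning and 27.6% and 35.8% at 8000 UMIs, and 23.4% in the control with at least 2 UMIs of each gene. In Hmx2/Lamp5 neurons it was 64.2% and 51.4% with no thinning. Leaving out the cell with most UMIs of the gene left all 26 ratios within their intervals. That alternative and the inclusion of set-aside clusters were chosen after seeing the data.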

Other observations

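The barcodes removed by the filter also carried the family. Tfap2a had 30 UMIs in the removed control barcodes (24.4 CPM) and 44 in the mutant ones (22.5 CPM), close to the kept cells. Tfap2b had 136 and 228 UMIs (111 and 117 CPM), above the 86.4 and 77.8 CPM of the kept cells. Tfap2d had 4 UMIs in the removed control barcodes (3.26 CPM) and 24 in the mutant ones (12.3 CPM), beside 3.27 and 6.08 CPM in the kept cells.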
